A study of Rattus norvegicus with 16 samples.

Results

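The regions described here are those that the authors' annotation of their SRF consensus regions assigned to Fos, Fosb, Fosl1 or Junb, genes of the AP-1 transcription factor family. They numbered 4 of 848 regions, 1 for each gene, and were chosen by gene name among regions in which a peak had been called in at least 1 SRF library. That a peak was present near each gene is therefore how the regions were chosen and is not a result. SRF (serum response factor) was mapped by chromatin immunoprecipitation and sequencing (ChIP-seq) in wild-type primary rat brain cultures prepared by immunopanning, a selection of cells on dishes coated with antibody. Oligodendrocytes (OL) were fixed on day 3 in differentiation medium (SRF replicates 1, 2 and 4), and oligodendrocyte precursor cells (OPC) were fixed in proliferation medium (SRF replicates 1 to 4), after 6 days of proliferation in both. Per the labels, each replicate was an independent preparation whose plates were divided between the stages. A control with a nonspecific antibody (IgG) was made once per stage, and 7 input libraries served as the authors' background for peak calling. ChIP reads do not measure expression, so the identity of the cells could not be checked against marker genes, and a region bound in more cells cannot be told apart from one bound more often per cell.

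AP-1 is a dimer of a Jun protein with a Fos or another Jun protein, joined by leucine zippers, and it binds the sequence TGANTCA. Fos, Fosb and Junb are immediate early genes, transcribed within minutes of a mitogen or of depolarisation without new protein synthesis, whereas Fosl1, which encodes Fra-1, usually follows with a delay. SRF binds the CArG box, the core of the serum response element, together with ternary complex factors such as Elk1 that carry the signal of the ERK pathway, and the element in the Fos promoter is the one through which SRF was first identified. In mouse, a serum response element has also been described downstream of Junb.

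The regions lay at different places relative to their genes. In the coordinates of build Rnor_6.0, the region of Fos was on chromosome 6, from 109300061 to 109300342, in the promoter, with its centre at -232 bp from the annotated transcription start site (TSS). That of Fosb was on chromosome 1, from 80221687 to 80222124, in the promoter at -195 bp. That of Fosl1 was on the same chromosome, from 220826418 to 220826516, in the promoter at -93 bp. The region of Junb was the exception, on chromosome 19 from 26092560 to 26092839, at the transcript's end and 2057 bp downstream of the TSS. The nearest other SRF region was between 12530 bp (Fos) and 56859 bp (Junb) away, so each of the 4 stood alone at its gene. No IgG peak overlapped any of them. The OL IgG library was shallow, with 1551203 tags and 24 peaks, against 11308414 tags and 117 peaks for OPC IgG. At that depth a missing OL IgG peak does not show an absence of background.

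Promoter sequences were available for 3 of the 4 genes (Fosb, Fosl1 and Junb; RefSeq, build GRCr8). The 250 bases before the RefSeq start site are printed for these, and for Egr1 as a contrast, because Egr1 is an immediate early gene with an SRF peak in its promoter in all 7 SRF libraries. Capitals mark a CArG box, or in a promoter without one a CArG-like stretch with 1 mismatch, and the motif TGACG, the core of the cyclic AMP response element; the Fosb window holds none of these. The coordinates are chr1:88089185-88089434 on the minus strand for Fosb and, on the plus strand, chr1:212183635-212183884 for Fosl1, chr19:40080876-40081125 for Junb and chr18:26736828-26737077 for Egr1.
Fosb: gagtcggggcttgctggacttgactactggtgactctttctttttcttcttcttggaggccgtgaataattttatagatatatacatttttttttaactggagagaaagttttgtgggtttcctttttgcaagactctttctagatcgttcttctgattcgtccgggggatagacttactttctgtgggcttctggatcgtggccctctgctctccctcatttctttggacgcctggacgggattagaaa
Fosl1: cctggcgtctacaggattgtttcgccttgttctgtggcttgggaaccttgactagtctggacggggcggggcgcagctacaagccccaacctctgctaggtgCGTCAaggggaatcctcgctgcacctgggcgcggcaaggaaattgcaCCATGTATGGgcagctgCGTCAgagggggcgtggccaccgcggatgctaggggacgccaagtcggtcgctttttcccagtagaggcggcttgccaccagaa
Junb: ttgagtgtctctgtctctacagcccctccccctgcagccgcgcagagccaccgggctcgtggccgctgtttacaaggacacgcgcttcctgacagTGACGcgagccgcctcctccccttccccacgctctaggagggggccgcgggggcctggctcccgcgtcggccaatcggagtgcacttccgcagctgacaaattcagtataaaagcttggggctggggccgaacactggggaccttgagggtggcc
Egr1: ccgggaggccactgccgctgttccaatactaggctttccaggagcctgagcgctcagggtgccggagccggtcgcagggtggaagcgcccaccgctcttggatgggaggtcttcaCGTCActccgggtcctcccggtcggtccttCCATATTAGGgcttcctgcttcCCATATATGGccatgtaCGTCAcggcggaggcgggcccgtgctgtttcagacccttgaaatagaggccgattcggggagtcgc

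On both strands of these windows, Egr1 held a CArG box at -105 to -96 and another at -83 to -74, and Fosb, Fosl1 and Junb held none. Of all 33469 RefSeq promoter windows of the same length 1.50% held a CArG box. Of the 225 genes with both a promoter sequence and a reproducible site within 1000 bp of the TSS, 4.89% had one in at least 1 window. Fos, which had no sequence, is not among the 225. Shares of the 225 genes count genes and the others count windows, so they are not strictly alike. The Fosl1 window held 1 stretch that departs from the CArG box at a single position, CCATGTATGG at -101 to -92, while the closest stretch in Fosb and in Junb had 3 mismatches. A stretch with at most 1 mismatch occurred in 18.7% of all windows. TGACG occurred at -148 to -144 and at -84 to -80 in Fosl1 and at -155 to -151 in Junb. It was held by 18.2% of all windows and by 30.7% of the 225 genes. The TGACG matches of Egr1 both lie within the longer TGACGT, which 6.95% of windows held. The AP-1 site TGANTCA and the ETS core CCGGAA had no match in any of the 4 windows. They occurred in 6.34% and 12.6% of all windows, and in 4.00% and 22.7% of the 225 genes. TATAAA matched in Fosb at -180 to -175 and in Junb at -49 to -44 (12.9% of all windows, 4.89% of the 225 genes). GGGCGG matched in Fosl1 at -187 to -182 (30.5% of all windows, 46.7% of the 225 genes). The windows are counted from RefSeq start sites in GRCr8 and the peaks from the authors' annotation of Rnor_6.0, so whether a peak covers a printed motif could not be read from these files. The Junb window does not hold the SRF region, which lay 2057 bp downstream of the TSS. Of the 5 Fosb summits 3 lay further from the annotated TSS than the 250 bases searched, so the Fosb window may not cover them. Fos, with summits at -295 and -305 bp, had no sequence to search. Windows without a CArG box therefore do not show that the SRF peaks at these genes lack one.

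Peaks were called most widely at Junb and Fosb, and the summits within a gene lay close together. Fold enrichment over the local input background and pileup at the summit are the authors' MACS values, used here to describe a peak within its own library. At Junb a peak was called in 1 of 3 OL libraries (replicate 1) and in 4 of 4 OPC libraries. Its fold enrichment was 15.2 in OL replicate 1, against 11.8, 8.73, 7.69 and 22.8 in OPC replicates 1 to 4. The peak of OPC replicate 4, with a pileup of 38 reads, ranked 110 of 714 by fold enrichment in that library, and that of OL replicate 1 ranked 118 of 436. Of the 5 summits 4 fell within 12 bp (26092682 to 26092694), at 2062 to 2074 bp downstream of the TSS, and that of OPC replicate 1 was at 2000 bp.

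Fosb encodes a Fos protein whose truncated form, known from mouse brain as delta-FosB, accumulates with repeated stimulation. It had a peak in 2 of 3 OL libraries and in 3 of 4 OPC libraries. Fold enrichment was 12.2 and 9.85 in OL replicates 1 and 2, against 7.82, 9.19 and 13.3 in OPC replicates 1, 2 and 4. These are middle ranks, between 238 of 714 in OPC replicate 4 and 274 of 432 in OPC replicate 1. The summits lay at -278 and -237 bp from the TSS in the OL libraries, against -288, -266 and -244 bp in the OPC libraries, a span of 51 bp. The peak of OL replicate 2 was 426 bp long, against 180 to 256 bp in the others. The fragment length that MACS estimated was 296 bp in OL replicate 2 and 72 to 86 bp in the other SRF libraries. Tags were 70 to 73 bp long, so the estimates in those other libraries lie close to the tag size. The part of the estimate in the width of the region was not tested.

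Fos, the partner of Jun proteins in the classical AP-1 dimer, had a peak in OL replicate 1 and in OPC replicate 4 and in no other library. Fold enrichment was 10.1 in OL replicate 1 (rank 214 of 436) and 9.01 in OPC replicate 4 (rank 375 of 714). The summits were 10 bp apart, at -295 bp in OL and -305 bp in OPC. Fosl1 had a single peak, in OPC replicate 4, of 99 bp with a pileup of 8 reads, a fold enrichment of 5.40 and rank 649 of 714. This peak had a −log10 q of 3.03, whereas the next weakest of the 13 peaks at the 4 genes, Fosb in OPC replicate 1, had 8.11. OPC replicate 4 was the library with the most peaks, and 256 of the 372 regions called in 1 library were called in it alone.

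**Figure D1:**
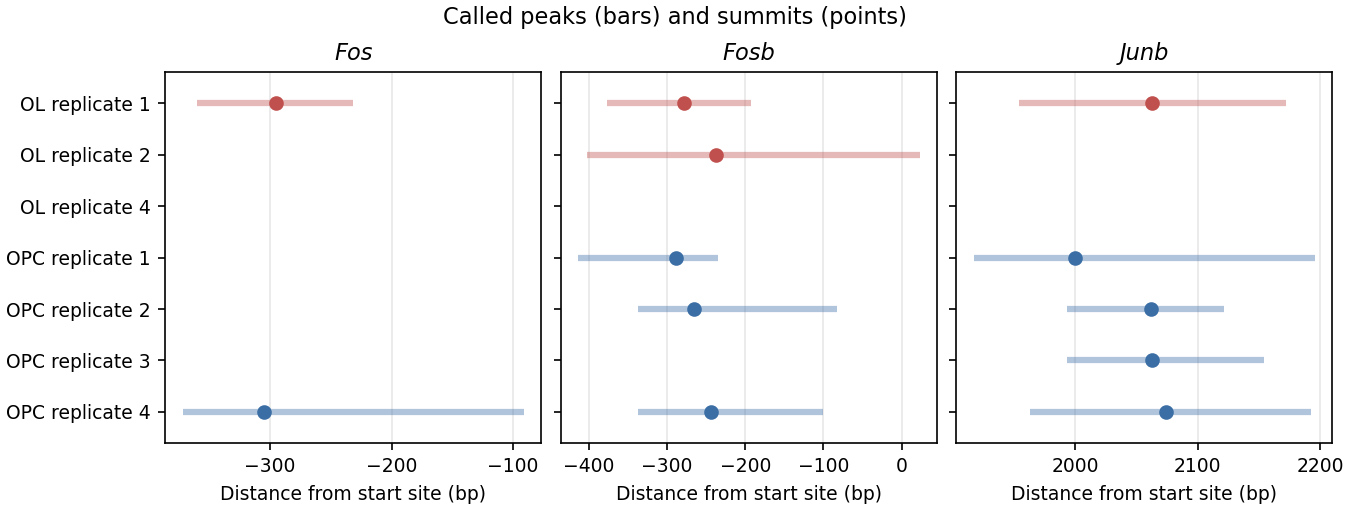
Peaks called at Fos, Fosb and Junb in each SRF library (rows, OL in red above OPC in blue), as bars from start to end with the summit as a point, against the distance from the annotated start site in bp. Both Fos summits lie at about the same place upstream, the Fosb summits span 51 bp, and 4 of 5 Junb summits, downstream of the start site, span 12 bp. Rows without a bar had no call.

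A region was counted as a reproducible site when 2 or more SRF libraries, and no IgG library, had a peak there. Fos, Fosb and Junb met this and Fosl1 did not, 3 of 4 regions, where 52.8% of all 848 regions did. The same 3 had a peak in at least 1 library of each stage, as had 44.9% of all regions. With OL replicate 1 or OPC replicate 4 left out 2 regions remained, because Fos rests on those libraries.

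The libraries without a call often held few reads. Depth ranged from 2394854 tags in OL replicate 2 and 3363937 in OL replicate 4 to 12103611 in OL replicate 1, and from 9054483 to 20303444 in OPC. At Fos there were 31, 6 and 7 reads in OL replicates 1, 2 and 4, against 27, 30, 21 and 35 in OPC replicates 1 to 4. The calls were in the 2 libraries with the most reads, and OPC replicate 2 with 30 reads had none. At Junb there were 46, 6 and 8 reads in OL, against 44, 38, 27 and 69 in OPC. Each library with 27 or more reads at Junb had a call, and the 2 without a call were the shallow OL libraries.

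At Fosb the reads were 37, 15 and 6 in OL replicates 1, 2 and 4, against 33, 40, 25 and 41 in OPC replicates 1 to 4. OL replicate 2 had a call with 15 reads, whereas OPC replicate 3 had none with 25. These libraries also differed in depth (2394854 and 11713315 tags) and in the fragment length estimated by MACS (296 and 72 bp). At Fosl1 the reads were 8, 2 and 5 in OL, against 6, 6, 7 and 11 in OPC, and the call was in the library with 11. With 2 to 8 reads at these regions in the shallow OL libraries where no peak was called, a missing call does not show an absence of SRF.

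Read counts were then scaled by the trimmed mean of M values (TMM) over the tested regions, which describes a region relative to the others and removes a change common to all. At Fos the normalised read counts were 24.9, 36.5 and 24.2 in OL replicates 1, 2 and 4, against 20.9, 27.2, 18.7 and 19.6 in OPC replicates 1 to 4. The groups overlapped through OPC replicate 2, and the highest value of either stage was in a library with no Fos peak. At Junb the counts were 36.9, 36.5 and 27.6 in OL, against 34.1, 34.4, 24.1 and 38.7 in OPC. These groups overlapped over most of their range.

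At Fosb the normalised read counts were 29.7, 91.2 and 20.7 in OL replicates 1, 2 and 4, against 25.6, 36.2, 22.3 and 23.0 in OPC replicates 1 to 4. One library, OL replicate 2, stood far above the rest, and the other OL values lay within or below the OPC range. The exact 95% Poisson interval of its 15 reads runs from 51.1 to 150.5 normalised reads, above the count of each other library. This interval covers counting error only, since reads amplified by PCR are not independent molecules, and it leaves out the uncertainty of the scaling. OL replicate 2 was picked out as the highest value, and its own peak set the start of the region. The interval is therefore no test of that library against the others. Replicate 2 was also the highest of the 4 OPC libraries at Fosb and at Fos.

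At Fosl1 the normalised read counts were 6.42, 12.2 and 17.3 in OL replicates 1, 2 and 4, against 4.64, 5.43, 6.24 and 6.17 in OPC replicates 1 to 4. Every OL library lay above every OPC library, by a margin of less than 1 normalised read between OL replicate 1 and OPC replicate 3. Over all 848 regions 6.72% had every OL library above every OPC library, and 19.9% had groups that did not overlap in either direction. Scaled to all tags of each library in place of TMM, the Fosl1 groups overlapped, since the 11 reads of OPC replicate 4 then ranked above those of OL replicates 1 and 2. With 2 to 11 reads per library Fosl1 did not reach the minimum of 10 reads in at least 3 libraries and was not tested. The other 3 regions were, as were 65.7% of all regions.

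**Figure D2:**
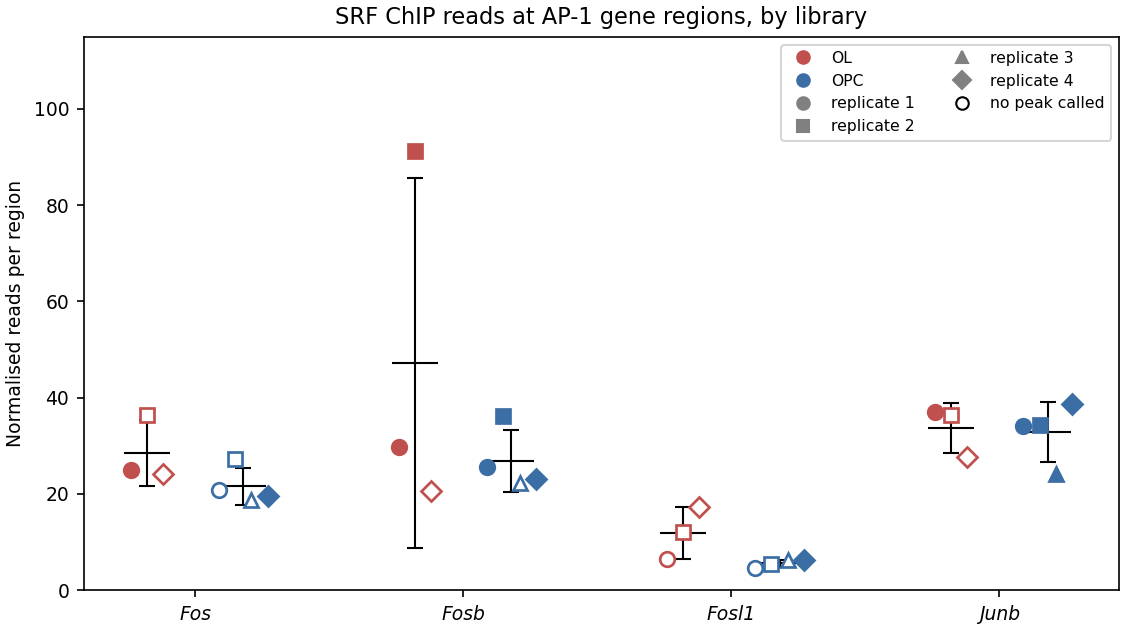
Normalised reads per region (y axis, linear from 0) at the 4 genes in each SRF library, OL in red left of OPC in blue, with marker shape for the replicate number, open markers where no peak was called, and the mean ± SD (n = 3 OL, n = 4 OPC) as a bar with whiskers. Fosb in OL replicate 2, at 91.2, stands apart; at Fos and Junb the stages overlap, and at Fosl1 the values are at most 17.3.

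None of the tested AP-1 regions differed between OL and OPC beyond the spread between replicates. In edgeR's quasi-likelihood test over 557 regions, 0 of 3 passed a Benjamini-Hochberg adjusted p of 0.05, where 2.15% of all tested regions did (12, with 10 lower in OL and 2, or 0.359%, higher), and 0 of 3 had an unadjusted p below 0.05, where 21.9% did. DESeq2 passed 0 of 3 as well, and 8.80% of all regions. With the replicate number as a block 0 of all 557 regions passed by edgeR, 0 of the 3 among them. The comparison asks how SRF occupancy at these genes differs once the precursors differentiate, and the intervals give the size of difference that the libraries allow.

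Fos averaged 28.5 ± 6.92 normalised reads in OL (SD, n = 3) and 21.6 ± 3.81 in OPC (SD, n = 4), and the log2 fold change was 0.30 ± 0.25 (SE; edgeR adjusted p = 0.608). The 95% interval ran from -0.26 to 0.86 on the log2 scale, or 0.836 to 1.81-fold. Junb, a Jun protein that can restrain the activity of Jun, averaged 33.7 ± 5.26 in OL and 32.8 ± 6.20 in OPC. Its log2 fold change of 0.059 ± 0.23 (edgeR adjusted p = 0.937) had an interval from 0.735 to 1.48-fold. A 2-fold difference in either direction lies outside both intervals as reported and outside those with the replicate block. Without OL replicate 1 the interval of Fos reached 2.44-fold, and scaled to all tags the intervals ran from 0.425 to 2.55-fold for Fos and from 0.326 to 1.89-fold for Junb.

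Fosb averaged 47.2 ± 38.4 normalised reads in OL (SD, n = 3) and 26.8 ± 6.46 in OPC (SD, n = 4). The log2 fold change was 0.51 ± 0.40 (edgeR adjusted p = 0.544), with an interval from 0.773 to 2.63-fold. It rested on OL replicate 2, since without that library the log2 fold change was 0.033 (edgeR adjusted p = 0.989). Fosl1 averaged 12.0 ± 5.42 in OL and 5.62 ± 0.748 in OPC, and when regions with few reads were kept in the fit its log2 fold change was 0.74 ± 0.50 (edgeR adjusted p = 0.470).

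The estimates for Fos and Fosb were positive in each of 15 alternative fits, with lowest and highest values of 0.026 and 0.45 for Fos and 0.033 and 0.89 for Fosb, and 0 of these fits passed either. Junb was positive in 10 of the 15 and turned negative with the replicate block (-0.056), scaled to all tags (-0.35), with both (-0.39), without OL replicate 1 (-0.072) and without OPC replicate 3 (-0.061). Scaled to all tags the median region itself had a log2 fold change of -0.35. Relative to that median Fosb stood at 0.71, Fos at 0.41 and Junb at 0.01.

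**Figure D3:**
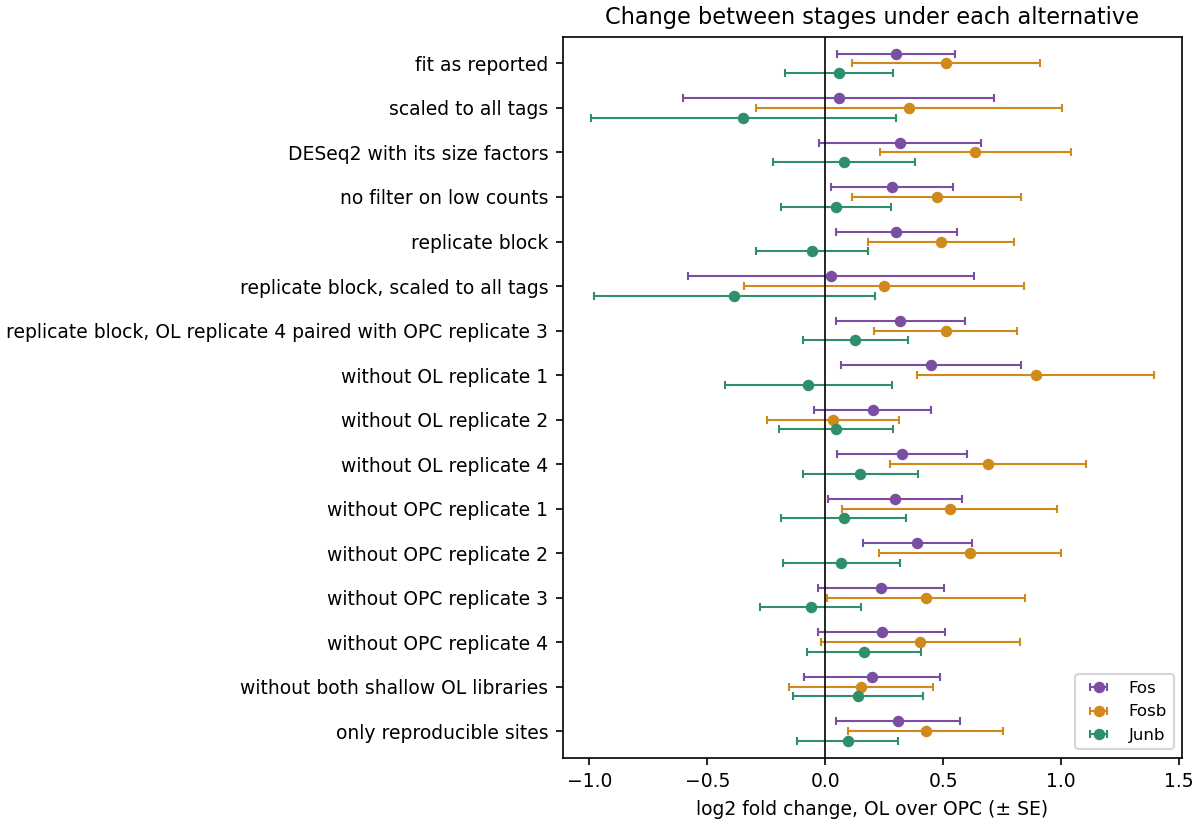
Log2 fold change of OL over OPC (x axis, points with SE as whiskers) at Fos, Fosb and Junb in the fit as reported and in 15 alternative fits (rows). Fos and Fosb lie right of 0 in each row, Fosb is at 0.033 without OL replicate 2, and Junb moves to either side of 0.

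Per length of region, Junb ranked above Fos in every library, narrowly in OL replicate 2, and the order of the others varied between libraries. Averaged over the 7 libraries, Junb had 118.5 normalised reads per kb of region, Fos 87.1, Fosl1 84.2 and Fosb 81.1. By stage, Fosl1 averaged 120.7 ± 54.8, Junb 120.3 ± 18.8, Fosb 107.8 ± 87.6 and Fos 101.1 ± 24.5 in OL (SD, n = 3), against 56.8 ± 7.55, 117.2 ± 22.1, 61.1 ± 14.7 and 76.6 ± 13.5 for the same genes in OPC (SD, n = 4). The OL means differed by less than the SD of Fos, Fosb or Fosl1, and in OPC that of Junb was the highest. Junb exceeded Fos in 7 of 7 libraries, by a median ratio of Fos to Junb of 0.772. In OL replicate 2 Fos and Junb held 6 reads each, and the ratio of 0.993 came only from widths of 282 and 280 bp. In OL replicate 4 they held 7 and 8 reads. Junb also exceeded Fosb in all but OL replicate 2 and Fosl1 in all but OL replicate 4. Fos exceeded Fosb in 6 of 7 libraries and Fosl1 in 6 of 7, whereas Fosb exceeded Fosl1 in 4 of 7, so the order of these neighbours is not fixed across libraries.

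Reads were counted when at least 0.2 of the read overlapped the region, which raises the count per kb of a short region more than that of a long one. With region lengths extended by 0.6 of a tag of 72 bp, the number of positions at which a read is counted, Junb had 102.7 normalised reads per kb, Fos 75.5, Fosb 73.8 and Fosl1 58.6. The place of Fosl1 thus depends on its width of 99 bp. The region of Fosb (438 bp) is the union of peaks from 5 libraries and is wider than each of them.

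By reads per kb of region, the AP-1 regions had middling levels among all 848 regions, with Junb in the upper part. Ranked by reads per kb within a library, Junb stood between the 56.6th percentile (OPC replicate 3) and the 83.2nd (OPC replicate 4). Fos stood at the 55.8th, 73.6th and 60.5th percentiles in OL replicates 1, 2 and 4, against the 48.3rd, 66.6th, 41.8th and 45.1st in OPC replicates 1 to 4. Fosb ranged from the 19.8th in OPC replicate 4 to the 86.2nd in OL replicate 2. The regions were themselves selected for having a peak, so these ranks compare SRF regions with each other and not with the genome. The ranks also depend on the measure of length and were not redone with extended lengths. The median region was 170 bp wide, against 282 bp for Fos, 438 bp for Fosb and 280 bp for Junb. Without division by length, Fos, Fosb and Junb held more reads than the median region in every library. Fosl1 (99 bp) did so only in OL replicate 4. Wider regions collect more reads.

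**Figure D4:**
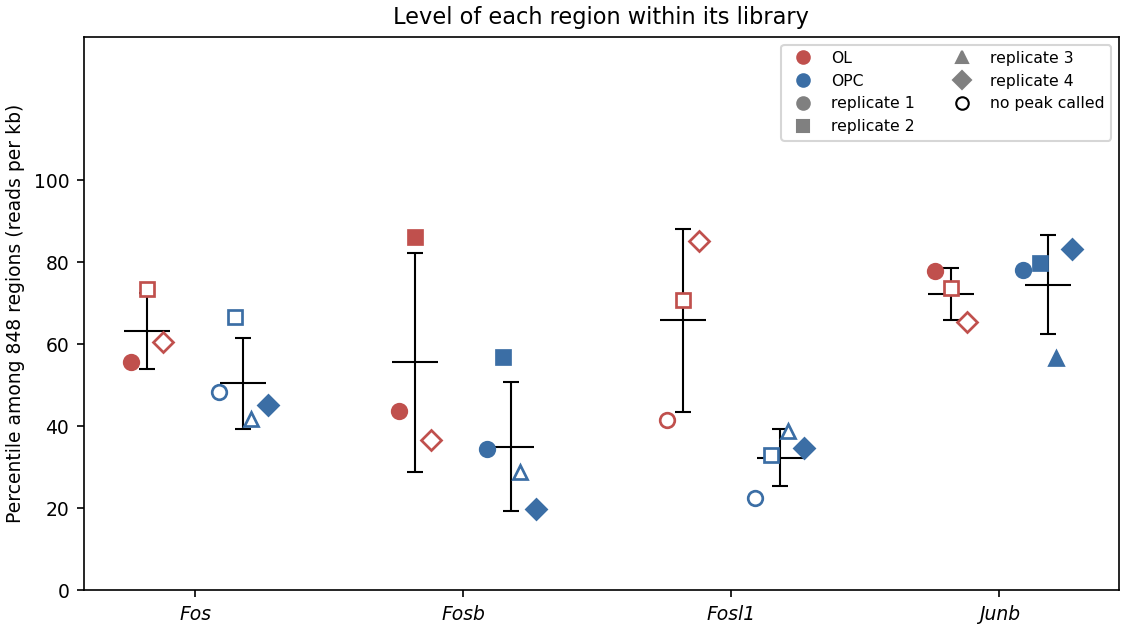
Percentile of each region among all 848 SRF regions of the same library by reads per kb (y axis), OL in red left of OPC in blue, with marker shape for the replicate number, open markers for no call and mean ± SD (n = 3 OL, n = 4 OPC). Junb lies above the 56th percentile in all 7 libraries, while Fosb and Fosl1 spread widely.

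Other genes of the AP-1 family and its upstream signals had no SRF region, where 2.52% of all protein-coding genes of the RefSeq table had one, so that lists of this size would hold few at that share. Of 17 other AP-1 genes, among them Jun, Jund, Fosl2, Atf3 and Batf, 0 were the named gene of any of the 848 regions. Of 18 genes of SRF cofactors and of the signalling to Fos (Elk1 and Mrtfa, for example) 0 had a region as well, older symbols included. Of 55 further immediate early and SRF response genes 12 (21.8%) had a region, with 15 regions in all. Of these 9 were reproducible sites, against 52.8% of all regions. Of the 11 tested 0 passed by edgeR in either direction, 3 had an unadjusted p below 0.05 and 2 passed by DESeq2, against 2.15%, 21.9% and 8.80% of all tested regions. Their median log2 fold change was 0.44, with 10 of 11 positive, against -0.0074 and 49.4% positive over all tested regions; that of the 3 AP-1 regions was 0.30.

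The levels of this list reached from below to far above those of the AP-1 regions. Its 6 regions called in the most libraries, a choice that favours high levels, were above Fos, Fosb and Fosl1. Egr1, a zinc finger transcription factor, averaged 252.0 normalised reads per kb over the 7 libraries, the upstream site of Egr3 193.4, Dusp5 (a phosphatase of ERK) 142.4, Homer1 (a postsynaptic scaffold) 116.7, Egr2 114.3 and Btg2 (an antiproliferative gene) 92.6. With the extended region lengths the order was Egr1 (239.2), Egr3 (176.6), Dusp5 (120.5), Egr2 (106.0), Junb (102.7), Homer1 (99.7), Btg2 (82.6) and Fos (75.5), so that Egr2 and Junb change places with the measure of length. The other 9 regions of the list had 27.5 to 90.7 normalised reads per kb, and 6 of them were below Fos.

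The regions whose level over the 7 libraries was most like that of each tested AP-1 region were found by the root mean square difference of log2 normalised reads among 556 regions of other genes. For Fosb they were Btg2 (0.170), at -13296 bp from the TSS, and Homer1 (0.290), at -1419 bp, where the median region differed from Fosb by 1.41. Btg2 averaged 44.0 ± 30.9 normalised reads in OL and 24.6 ± 4.57 in OPC, with a spread between OL libraries like that of Fosb. For Fos the closest were the promoters of Slc35b4 (0.231) and LOC301124 (0.248), and for Junb those of Nudt13 (0.187) and Clec16a (0.232). All 7 libraries share their regions and scaling, and this likeness is a description of read levels only.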

How the data were processed

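Per the labels' protocols, chromatin received 7 rounds of sonication, and the precipitated DNA went through 12 cycles of PCR before single-end sequencing. Trim Galore, BWA, MACS2, HOMER and Rnor_6.0 are listed in the submitters' processing notes. Peaks were called by the authors in each library separately (MACS 2.2.7.1, q-value cutoff 0.05, all duplicates kept, per the file headers). Each SRF library had its own input as background, and each IgG library had the input of SRF replicate 1 of its stage. The deposited peak tables give pileup signal, fold enrichment ratio and −log10 of p and q. The deposited count table holds whole read counts over the consensus regions, made with featureCounts for reads with 0.2 or more of their length in a region, and is not normalized. Gene names and distances are those of the deposited HOMER table. Distances of summits were computed from the TSS and strand that the signed distances of peaks in different libraries imply.

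A region was called in a library when a peak overlapped it by at least 1 bp. Regions that reached 10 reads in 3 or more libraries were tested with edgeR 4.0.16 under R 4.3.3 (TMM, quasi-likelihood, OL over OPC) and adjusted by Benjamini-Hochberg over 557 regions; normalised reads are reads divided by the effective (TMM) library size, itself taken relative to the mean of the 7 libraries. The SE is the log2 fold change over the root of its F statistic. DESeq2 1.42.0, other scalings and filters, and fits without single libraries were alternatives, and the edgeR fit was tested on simulated data. Log2 levels for likeness used a pseudocount of 1. The regions, gene lists, motifs and tests were chosen with earlier results of these data known. The rule for named genes took every region of the 4 genes, the 6 regions of the other lists with the most calls and the 2 regions most like each tested one; the Egr1 promoter falls outside it and was added with the data in view. Older symbols of a gene were searched too and counted once.

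Replicate numbers 1, 2 and 4 were taken to pair OL with OPC, since the labels say that plates of a preparation went to either stage; OPC replicate 3 is unpaired. The OL library that the labels number 4 is numbered 3 in the names of its files, so a block that pairs it with OPC replicate 3 was added after seeing the data. Across regions, deviations from the stage mean correlated at 0.085, 0.25 and 0.17 within these pairs, and those of OL replicate 1 with OPC replicate 4 at 0.25, so the pairing rests on the labels.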

Additional observations from a re-analysis of the deposited data

How the results depend on the processing

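The count of 0 AP-1 regions past the threshold was the same in each of the 15 alternative fits, and the count of reproducible AP-1 sites stayed at 3 with a stricter peak threshold (−log10 q of at least 3) and with a required overlap of 0.5 of the region or peak; it ranged from 2 to 3 without single libraries. The count over all regions, 12 as reported (2 higher and 10 lower in OL), was 0 with the replicate block, 0 scaled to all tags, 0 with both, 0 with a block that pairs OL replicate 4 with OPC replicate 3 (these last fits were added after seeing the data), 49 by DESeq2 (35 higher and 14 lower), 22 with no filter on low counts (8 and 14), 35 when only reproducible sites were tested (17 and 18), 1 without both shallow OL libraries (lower in OL) and 1 to 31 without single libraries. Without OPC replicate 4 it was 1 (lower in OL), and without OL replicate 1 it was 31 (28 higher and 3 lower), the opposite balance of directions from the count as reported. The cause was not tested. The replicate block, with either pairing, changed no call at the AP-1 regions. The log2 fold change of Junb, 0.059 as reported, reversed to -0.056 with the replicate block, -0.35 scaled to all tags, -0.39 with both, -0.072 without OL replicate 1 and -0.061 without OPC replicate 3, and was 0.13 with the other pairing; without single libraries it ranged from -0.072 to 0.16. Precision is limited by depth, with 6 to 15 reads at Fos, Fosb and Junb in OL replicates 2 and 4. The share of tags within the SRF regions also differed, from 0.1158% in OPC replicate 2 to 0.3785% in OPC replicate 4. Its part in these results was not tested.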
